A study of Mus musculus with 10 samples.

Results

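RNA that came down with an antibody against 4E-T was compared with RNA that came down with control IgG. The comparison held 6 of the 10 arrays of the series, 3 for each precipitate. They were chosen by their titles, as 4E-T replicates 1, 2 and 3 and IgG replicates 2, 3 and 4. All material was embryonic cortex of CD1 mice, taken between embryonic days 12 and 13, and the labels name no allele and no agent for any group. The 4 arrays of total input RNA served the fit and the description of each precipitate, and every level was read on Affymetrix Mouse Gene 2.0 ST arrays as a log2 value.

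4E-T, the product of Eif4enif1, binds the cap-binding protein eIF4E and competes there with the scaffold that recruits ribosomes. It is a component of P-bodies, cytoplasmic granules in which repressed mRNAs gather with decay factors. In the embryonic cortex, dividing radial precursors line the ventricle and give rise to intermediate progenitors and neurons, and mRNAs held back from translation are one way in which such precursors carry transcripts for later use. The comparison asked which RNAs 4E-T antibody brought down at a relative level above that of control antibody. The accounts below concern protein-coding genes outside the zinc finger family.

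The arrays numbered 1 sat on a lower scale. Over all probe sets the median value was 3.52 on 4E-T 1 and 3.54 on input 1, and 4.33 to 4.54 on the other 8 arrays, and no IgG array carries the number 1. The fit therefore held a term for number 1, so that 4E-T 1 entered through its difference from input 1. A gene was called at a limma adjusted p (Benjamini-Hochberg over all 22180 genes) under 0.05. The values of input 1 and 4E-T 1 were equal at 8.73% of the 22180 genes, each read by its 1 kept probe set. The highest such share among the other 44 pairs was 0.126%, and whether these arrays were processed apart from the other 8 is not stated. The part of separate processing in the results was not tested. A fit on the other 8 arrays alone called 1395 genes higher and 516 lower. Array values of this kind are relative levels, and how much RNA each antibody brought down was not compared. The design text speaks of biological replicates but the labels do not say what separates them, so the p-values measure the spread between these samples.

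In all, 1678 genes were higher in 4E-T than in IgG (7.57% of those tested) and 648 were lower (2.92%). Among the fits without 1 array the number fell most without 4E-T 2 or 4E-T 3. These are the 4E-T arrays compared with IgG without the term for number 1, so leaving out either also lowers the precision. Without 4E-T 2 the counts were 663 and 267, and without 4E-T 3 they were 684 and 251. Under the group term alone, which leaves the lower scale of 4E-T 1 in the spread, 157 genes were higher and 142 lower. The higher genes then made up 52.5% of the calls, in place of 72.1%. The counts were 1095 and 415 with each array centred on its median over the 22180 genes in place of the term for number 1. These gene medians, used wherever centring is named below, were 4.15 on input 1, 4.20 on 4E-T 1 and 4.82 to 4.94 on the other arrays. The median difference over all genes was 0.03, and -0.19 with the group term alone.

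Protein-coding genes other than zinc finger genes, chemoreceptors and predicted genes made up 16310 of the genes tested. Of these, 1467 were higher (8.99%) and 398 lower (2.44%), with a median difference of 0.06. The median size was 1.75-fold among the higher genes (quartiles 1.59 and 2.01) and 1.64-fold among the lower genes (1.52 and 1.83). A change of at least 2-fold was seen in 386 of the higher genes (26.3%) and in 55 of the lower genes (13.8%). A total of 442 higher and 77 lower genes kept their call in every one of the 10 fits without 1 array. Calls lay on both sides over the whole range of input values above the dimmest genes.

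**Figure D1:**
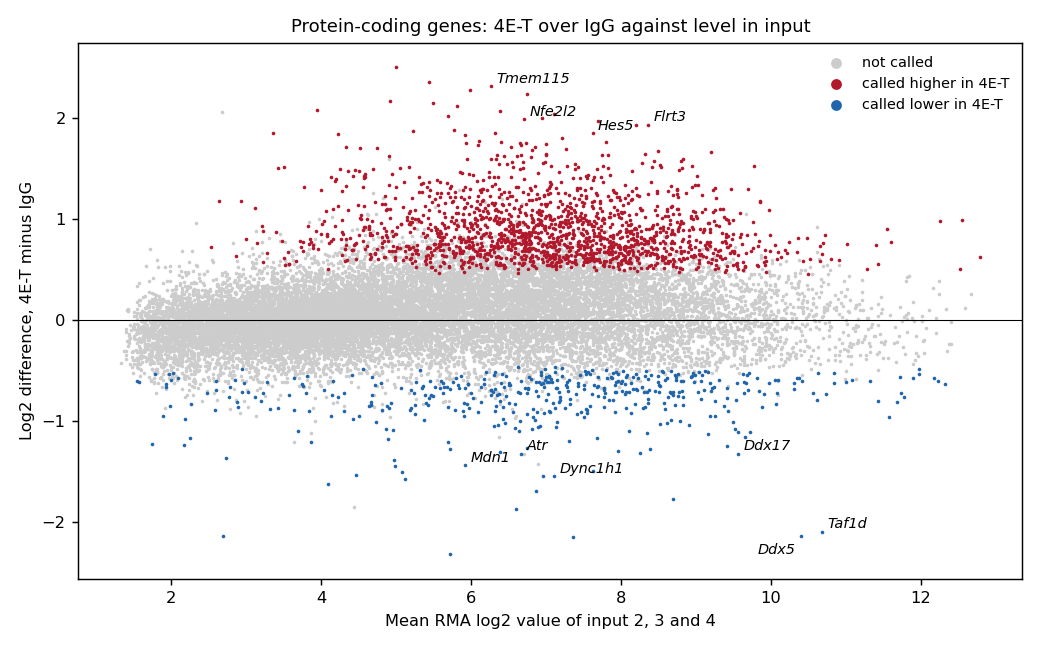
Log2 difference between the 4E-T and IgG precipitates (vertical axis) for each protein-coding gene, zinc finger genes included, against its mean log2 value in input 2, 3 and 4 (horizontal axis), with called genes in red (higher) and blue (lower). Few genes are called at the low end of the input scale, and Ddx5 and Taf1d stand below the rest at the bright end.

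The share of called genes differed with the input signal. The 16310 genes were cut into 5 equal groups by their mean value in input 2, 3 and 4, which depends on the probes as well as on the RNA. In order from the dimmest to the brightest group, 0.644%, 2.67%, 9.1%, 16.4% and 16.2% were higher in 4E-T. The lower shares were 0.766%, 0.674%, 1.75%, 3.74% and 5.27%. The brightest groups held input values from 6.27 to 7.67 and from 7.67 upward, and a list of genes that bright is to be read against their 16.4% and 16.2% rather than against the share of all genes. The group with 2.67% held values from 3.78 to 4.86, and a list that dim is likewise to be read against that share. The genes called higher had a median input value of 7.11 and those called lower 7.28, against 5.59 over all of them.

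Gene length was set against the calls. Lengths here are the spans of the genes in the RefSeq table of GRCm38.p6, introns included. Among the genes with an input value above 6, the median span was 26.1 kb over all genes, 18.6 kb for those called higher and 30.7 kb for those called lower. In 5 equal groups of these genes from short to long, 20.9%, 19.3%, 13.2%, 14.3% and 12.2% were higher. The lower calls ran from 3.07% through 3.77%, 4.47% and 4.33% to 5.51%. Over all 16310 genes, dim ones included, the higher shares from short to long were closer together, at 9.1%, 10.1%, 8.77%, 8.71% and 8.25%, and the lower shares were 1.81%, 1.9%, 2.73%, 2.48% and 3.28%.

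**Figure D2:**
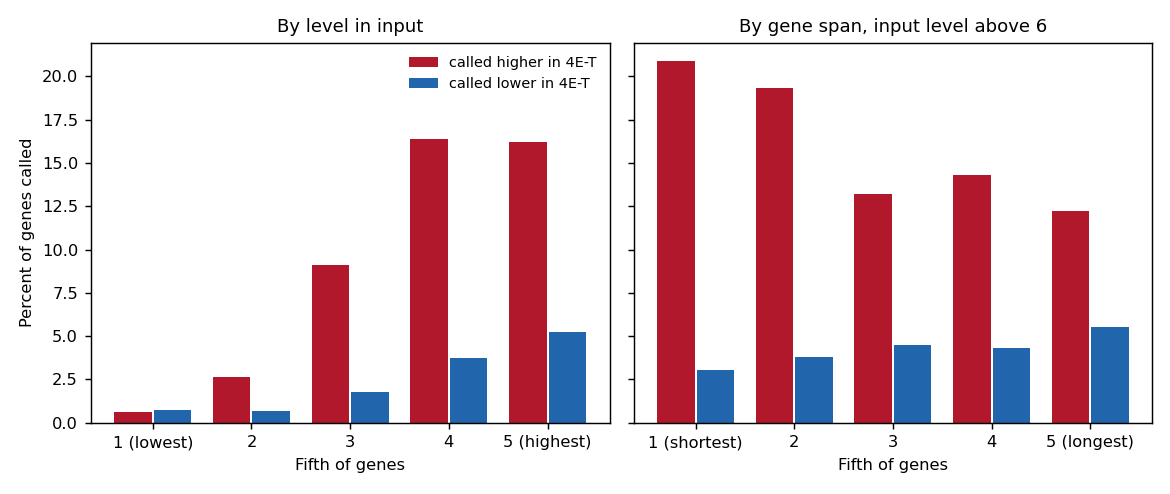
Percent of genes called higher (red) and lower (blue) in 4E-T in 5 equal groups of the 16310 genes by mean input value (left), and in 5 equal groups of those with an input value above 6 by gene span (right). The share of higher calls goes from 0.644% to over 16% with input signal and from 20.9% to 12.2% with span, while that of lower calls goes from 3.07% to 5.51% with span.

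The tissue label was read against markers. Of 12 markers of cortical precursor cells 7 were higher in 4E-T and 0 lower: Sox2, Hes5, Nes, Emx2, Slc1a3, Hes1 and Emx1. Only Sox2, Hes5 and Nes were called in every fit without 1 array. Without 4E-T 2 the calls of Hes1, Slc1a3, Emx1 and Emx2 were lost, and without 4E-T 3 or IgG 3 those of Hes1, Slc1a3 and Emx1. Slc1a3 also lost its call without input 2, input 3 or IgG 4, and Emx1 kept its call only without input 4. Of 6 markers of intermediate progenitors Neurog2, Neurog1 and Gadd45g were higher, and each lost its call in some fit without 1 array. Of 10 markers of cortical neurons 0 were higher and Dcx, which encodes the microtubule protein doublecortin, was lower (-1.11 ± 0.21, SE). The median input value was 7.91 for precursor markers, 8.63 for those of intermediate progenitors and 8.87 for those of neurons. Of genes with input values from 7.67 upward, 16.2% were higher and 5.27% lower. With the gene median of each array taken off, the mean value of the precursor markers was 3.90 to 4.44 in the 4E-T arrays and 3.33 to 3.47 in the IgG arrays. For intermediate progenitors these ranges were 3.41 to 3.79 and 3.07 to 3.27, and for neurons they were 4.23 to 4.56 and 4.25 to 4.58. Both precipitates came from whole tissue. A difference in the RNA that each antibody brought down, in the cells that contributed or in RNA per cell cannot be told apart. The part of these shifts in the results below was not tested.

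Markers of most other cells were dim, and those of erythroid cells were not. The median input value was 4.86 for endothelial cells, 4.89 for microglia and macrophages, 4.65 for meningeal and mesenchymal cells, 5.1 for ventral forebrain cells and 6.51 for erythroid cells, against 7.91 for precursor cells and 8.87 for neurons. The brightest erythroid marker was the embryonic globin gene Hbb-y (10.78 in input), which was not called (0.14 ± 0.22). Of 10 endothelial markers Kdr and Emcn were higher, of 10 meningeal ones Foxc1 and Foxd1, of 9 ventral forebrain ones Gad2 and Gsx2, of 6 erythroid ones Slc4a1, and of 10 microglial ones 0. None of these lists held a lower gene, and only Kdr and Foxc1 were called in every fit without 1 array. Of genes with input values from 3.78 to 4.86, 2.67% were higher and 0.674% lower. From 4.86 to 6.27 the shares were 9.1% and 1.75%, and from 6.27 to 7.67 they were 16.4% and 3.74%. With the gene medians taken off, the endothelial markers had a mean of 0.06 to 0.15 in 4E-T and -0.34 to -0.14 in IgG. The other ranges were -0.67 to -0.07 and -0.49 to -0.15 for meningeal markers, 0.41 to 0.76 and 0.10 to 0.42 for ventral ones, 2.19 to 2.31 and 1.39 to 2.18 for erythroid ones, and -0.25 to -0.14 and -0.14 to 0.05 for microglial ones. The table carries no detection calls, so which markers are absent could not be told.

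The 15 highest and 15 lowest differences were taken from genes called in the fit and in each fit without 1 array. Their values also did not overlap between the precipitates once each array was centred on its median. Both properties were part of that choice.

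Several leading genes on the higher side act in stress responses and kinase signalling. Nfe2l2, which encodes the transcription factor that turns on antioxidant genes, read 7.70, 8.06 and 7.86 on 4E-T 1, 2 and 3 and 6.18, 5.89 and 5.97 on IgG 2, 3 and 4. The difference was 1.99 ± 0.15 (SE, 3.96-fold, limma adjusted p = 6.41e-05). Dyrk3, a kinase gene whose product helps dissolve stress granules, read 9.24, 9.10 and 9.15 against 7.18, 7.51 and 7.36 (1.93 ± 0.20). Every 4E-T array lay well above every IgG array at both genes, 4E-T 1 included in spite of its lower scale. Nuak2, a gene of the AMPK-related kinases, read 5.95, 6.58 and 6.68 against 4.66, 5.26 and 3.53 (2.16 ± 0.39), so its IgG values spread over more than those of 4E-T. Oser1, named for its response to oxidative stress, read 7.23, 6.62 and 6.93 against 4.69, 5.05 and 5.74 (1.77 ± 0.27).

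Receptors, adhesion molecules and a Notch target followed. Hes5, a transcriptional repressor downstream of Notch that keeps precursors undifferentiated, read 8.99, 9.99 and 9.67 in 4E-T and 8.15, 7.98 and 8.14 in IgG (1.85 ± 0.17, adjusted p = 0.000161). Boc and Disp1 belong to hedgehog signalling, as a co-receptor and as the transporter that releases the ligand. Boc read 9.04, 9.03 and 8.92 against 7.61, 7.40 and 6.59 (1.80 ± 0.24), and its 4E-T values lay closer together than its IgG values. Disp1 read 6.24, 6.92 and 6.85 against 5.31, 5.23 and 4.77 (1.83 ± 0.20). Flrt3, a membrane protein in cell adhesion and axon guidance, read 9.91, 10.29 and 10.01 against 8.48, 8.42 and 7.83 (1.93 ± 0.21). Cdh10, a cadherin of neurons, read 7.34, 8.55 and 8.27 against 6.47, 6.73 and 6.72 (1.75 ± 0.27), with 4E-T 1 the lowest of its 4E-T values and still above all 3 IgG values. With the group term alone the calls of Hes5 (1.46, adjusted p = 0.0886) and Cdh10 (1.41, adjusted p = 0.115) were lost.

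Golgi and nuclear genes made up most of the rest. Tmem115, a Golgi membrane protein gene, read 7.29, 7.19 and 7.30 in 4E-T and 5.05, 5.25 and 4.88 in IgG (2.31 ± 0.19). Blzf1, which encodes the Golgi matrix protein golgin-45, read 6.83, 7.08 and 6.83 against 5.63, 5.52 and 4.56 (1.73 ± 0.25). In both Golgi genes the groups lay more than a log2 unit apart. Pinx1, an inhibitor of telomerase, read 7.70, 8.41 and 8.14 against 6.32, 6.64 and 6.44 (1.76 ± 0.16). Zswim3, a gene with a SWIM-type zinc finger that the naming rule did not leave out, read 7.58, 7.70 and 7.86 against 6.0, 5.90 and 6.23 (1.76 ± 0.18). Ttc17, a gene tied to actin and cilia, read 8.16, 8.52 and 8.32 against 6.53, 6.68 and 7.02 (1.75 ± 0.17). S100a6, a calcium-binding protein gene, read 4.07, 5.62 and 5.43 against 3.56, 4.37 and 3.38 (1.74 ± 0.31). It was the exception among the leading genes, since its value on 4E-T 1 lay under that on IgG 3 before centring and its call was lost with the group term alone (1.27, adjusted p = 0.291).

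**Figure D3:**
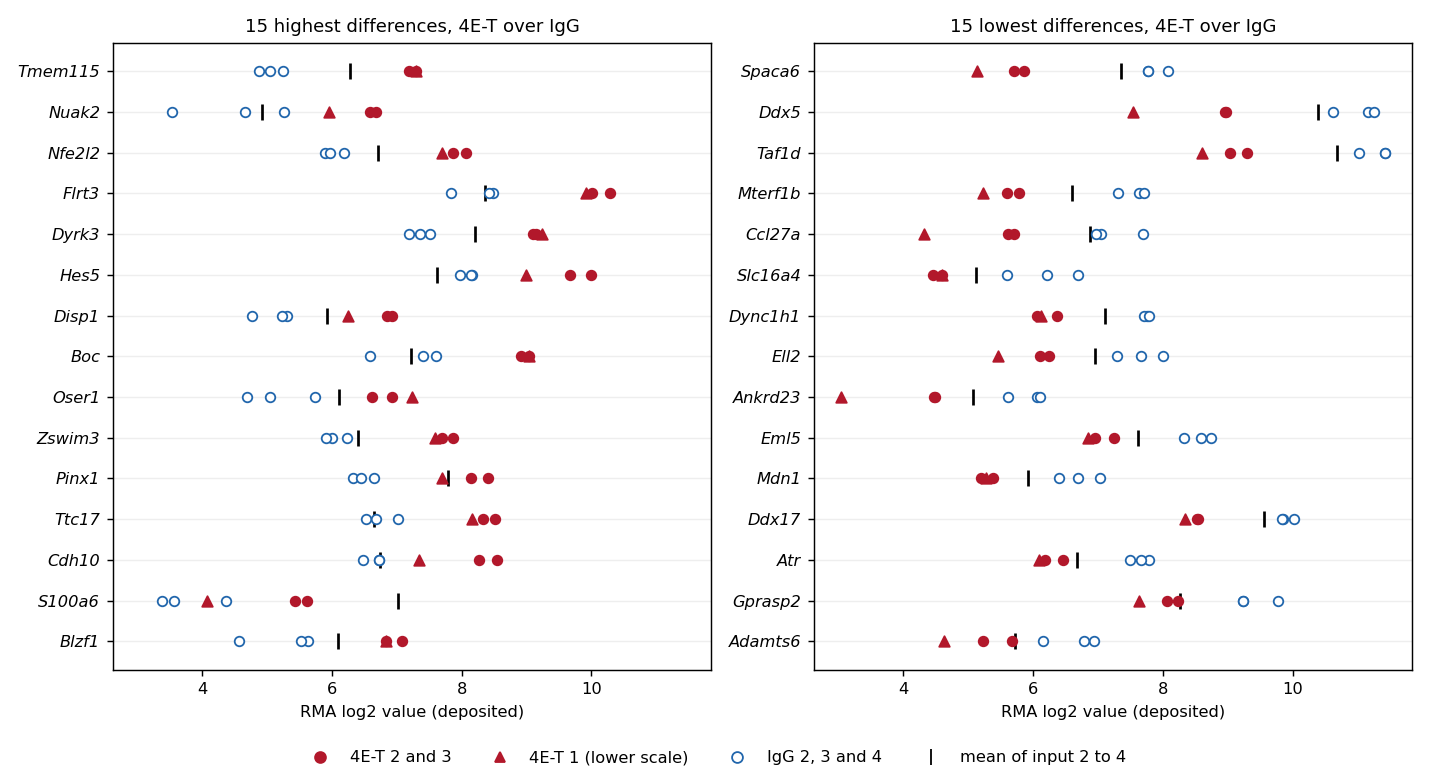
Deposited log2 value of each array (horizontal axis) for the 15 genes with the highest (left) and the 15 with the lowest (right) difference between 4E-T and IgG, with 4E-T 1 as a triangle, 4E-T 2 and 3 as filled circles, IgG 2 to 4 as open circles and the mean of input 2 to 4 as a bar. The 4E-T and IgG values stand apart in every gene but S100a6, where 4E-T 1 lies at 4.07 and IgG 3 at 4.37.

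The leading lower genes included RNA helicases and genes of the transcription machinery. Ddx5, a DEAD-box helicase that works in splicing, transcription and microRNA processing, read 7.54, 8.97 and 8.96 in 4E-T and 11.17, 11.26 and 10.63 in IgG (-2.14 ± 0.19, adjusted p = 0.000138). Its close relative Ddx17 read 8.34, 8.54 and 8.52 against 10.02, 9.86 and 9.84 (-1.33 ± 0.14, adjusted p = 0.000246). All 4E-T values of both helicases lay more than a log2 unit under all IgG values. Taf1d, a subunit of the complex that starts transcription by RNA polymerase I, read 8.60, 9.30 and 9.04 against 11.43, 11.43 and 11.02 (-2.10 ± 0.17). Ell2, an elongation factor of RNA polymerase II, read 5.46, 6.10 and 6.24 against 7.66, 8.0 and 7.29 (-1.55 ± 0.20). Its call depended on the probe set, since the mean over the probe sets of Ell2 gave -0.51 (adjusted p = 0.0824). Mterf1b, a mitochondrial transcription termination factor, read 5.23, 5.59 and 5.78 against 7.64, 7.31 and 7.71 (-1.88 ± 0.22). It has a near-identical copy in the mouse genome, so which copy was read is uncertain.

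A motor, an ATPase, a kinase and a microtubule protein were also among the leading lower genes. Dync1h1, the heavy chain of the motor cytoplasmic dynein, read 6.12, 6.37 and 6.06 in 4E-T and 7.76, 7.71 and 7.79 in IgG (-1.55 ± 0.15, adjusted p = 0.000195). Mdn1, a giant ATPase of ribosome assembly, read 5.28, 5.38 and 5.19 against 7.03, 6.40 and 6.69 (-1.44 ± 0.17). Atr, the kinase that signals stalled replication, read 6.09, 6.46 and 6.19 against 7.79, 7.49 and 7.66 (-1.32 ± 0.15). In these genes 4E-T 1 lay within or close to the range of 4E-T 2 and 3. Eml5, a member of a family of microtubule-associated proteins, read 6.84, 7.25 and 6.95 against 8.75, 8.59 and 8.32 (-1.50 ± 0.18).

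The remaining leading lower genes differ in their roles, and the first of them had the lowest difference of all 15. Spaca6, a sperm membrane protein gene, read 5.13, 5.70 and 5.86 in 4E-T and 8.08, 7.77 and 7.77 in IgG (-2.15 ± 0.17). Ccl27a, a chemokine gene with near-identical copies that make its value uncertain, read 4.32, 5.71 and 5.61 against 7.05, 7.69 and 6.97 (-1.69 ± 0.21). Slc16a4, a monocarboxylate transporter, read 4.59, 4.60 and 4.46 against 6.69, 6.22 and 5.59 (-1.58 ± 0.27). All 3 lay clear of the IgG values on every 4E-T array. Ankrd23, an ankyrin repeat protein, read 3.04, 4.48 and 4.47 against 5.61, 6.06 and 6.11 (-1.51 ± 0.19). Gprasp2, a protein that sorts G protein-coupled receptors, read 7.63, 8.07 and 8.24 against 9.23, 9.23 and 9.78 (-1.32 ± 0.19). Adamts6, a secreted metalloprotease, read 4.62, 5.68 and 5.23 against 6.94, 6.79 and 6.15 (-1.28 ± 0.23).

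The input arrays show on which side of total RNA each precipitate lay. Both comparisons below share those arrays, so their values are only set side by side. Of the 15 leading higher genes 14 lay above input in 4E-T, and 12 lay below input in IgG. Hes5 was at 2.38 ± 0.15 over input in 4E-T and at 0.54 ± 0.16 in IgG. Ttc17 (1.89 and 0.14), Flrt3 (1.84 and -0.10), Boc (1.81 and 0.01) and Cdh10 (1.64 and -0.11) were high in 4E-T and near input in IgG. The difference of Pinx1 came mostly from the other side, with 0.40 ± 0.14 in 4E-T and -1.36 ± 0.15 in IgG. Nfe2l2 (1.32 and -0.67), Dyrk3 (1.17 and -0.75), Disp1 (1.04 and -0.79), Tmem115 (1.19 and -1.12), Oser1 (0.92 and -0.85) and Blzf1 (0.88 and -0.85) lay above input in 4E-T and below it in IgG, as did Zswim3 (1.42 and -0.34) and Nuak2 (1.74 and -0.43). S100a6 was under input in both precipitates, at -1.51 ± 0.28 in 4E-T and -3.25 ± 0.28 in IgG, so its value in 4E-T stayed below that in total RNA.

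All 15 leading lower genes lay below input in 4E-T and above input in IgG. Ddx5 was at -1.57 ± 0.17 in 4E-T and 0.56 ± 0.17 in IgG, Taf1d at -1.47 and 0.62, Spaca6 at -1.68 and 0.47, Ccl27a at -1.40 and 0.29 and Ddx17 at -0.96 and 0.37. In these genes the larger part lay on the 4E-T side. For Gprasp2 (-0.21 ± 0.17 and 1.11 ± 0.18), Atr (-0.35 ± 0.13 and 0.97 ± 0.13), Slc16a4 (-0.48 and 1.09) and Adamts6 (-0.43 and 0.84) the larger part lay on the IgG side. Dync1h1 (-0.92 and 0.64), Ell2 (-0.90 and 0.65), Mterf1b (-0.94 and 0.94), Mdn1 (-0.67 and 0.77), Ankrd23 (-0.70 and 0.81) and Eml5 (-0.60 and 0.90) lay between.

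**Figure D4:**
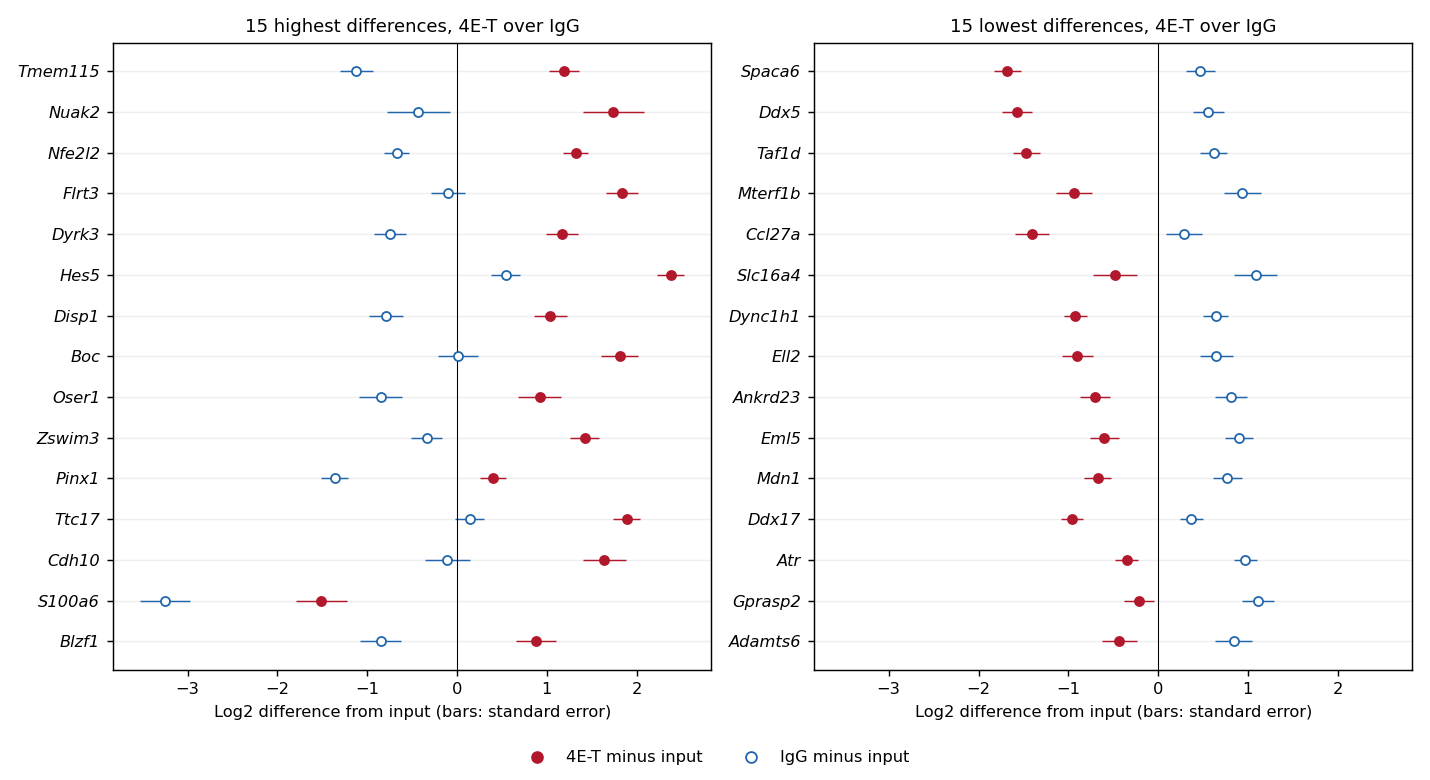
Log2 difference from input (horizontal axis, with standard errors of the fit as bars) of 4E-T (filled) and IgG (open) for the 15 leading higher genes (left) and the 15 leading lower genes (right). The 4E-T points lie right of 0 in 14 of the higher genes, with S100a6 at -1.51, while in all 15 lower genes 4E-T lies left of 0 and IgG right of it.

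The rest of the transcriptome was read in 46 lists of genes by function. For each list the text gives the members called higher and lower and, among the counts without 1 array, those that moved by more than 1.5 times. Of the lists, 33 held a larger share of higher calls than the 7.57% of all genes and 16 a larger share of lower calls than the 2.92%. All genes include noncoding ones, and the 16310 protein-coding genes above had shares of 8.99% and 2.44%. Lists such as solute carriers (8.12%), cohesin and condensin genes (8.70%) and receptor tyrosine kinases (8.82%) lay between the higher shares. Their median input values differed, at 4.89, 8.23 and 4.42, in groups of which 9.1%, 16.2% and 2.67% were higher. Cadherins (2.86%) and tRNA synthetases (2.78%) lay between the lower ones. In 12 lists no higher call was kept in every fit without 1 array. Under the group term alone 73 of the 92 counts (higher and lower in each list) were smaller by more than 1.5 times, and with arrays centred on their medians 40 were smaller and 2 larger. Examples were named by a fixed rule, and other members are named after their values were seen. The rule took members called in every fit without 1 array where a list had any, so for such examples that property was part of the choice. A call here compares the precipitates with each other and places neither against input. Some higher examples lay below input in both, such as Med29 (-0.65 in 4E-T and -1.64 in IgG), Gins2 (-0.56 and -1.57) and Ift22. Others lay above input in 4E-T, such as Efnb2 (1.21 and -0.09). The lower examples Smg1 (-0.04 and 1.13) and Usp24 (0.06 and 0.85) lay near input in 4E-T and above it in IgG. Several lists with large higher shares were bright. DNA replication genes (17.8%, median input value 7.58), Mediator subunits (18.2%, 7.77), chaperones (18.7%, 7.39), nonsense-mediated decay genes (18.2%, 7.07) and ubiquitin-specific peptidases (17.5%, 7.19) had higher shares near the 16.2% and 16.4% of genes that bright. The median input value was 7.79 for sterol synthesis, 6.81 for autophagy genes, 6.75 for PP1 and PP2A subunits, 6.69 for the Hippo pathway, 6.51 for glycolysis, 6.34 for ephrins and Eph receptors and 6.27 for dual-specificity phosphatases. It was lower for numbered transmembrane proteins (5.90), glycosyltransferases and sulfotransferases (5.98), circadian clock genes (5.75) and RING finger genes (5.72). PP1 and PP2A subunits (17.5%), the Hippo pathway (18.5%) and ephrins and Eph receptors (19.0%) lay near the 16.4% of genes that bright. Dual-specificity phosphatases (20.8%) lay at the border of the groups with 9.1% and 16.4%. Other lists with median input values from 6.27 to 7.67 lay under 16.4%, such as DNA repair genes (11.6%), nucleoporins (4.0%) and the MAP kinase cascade (2.22%).

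**Figure D5:**
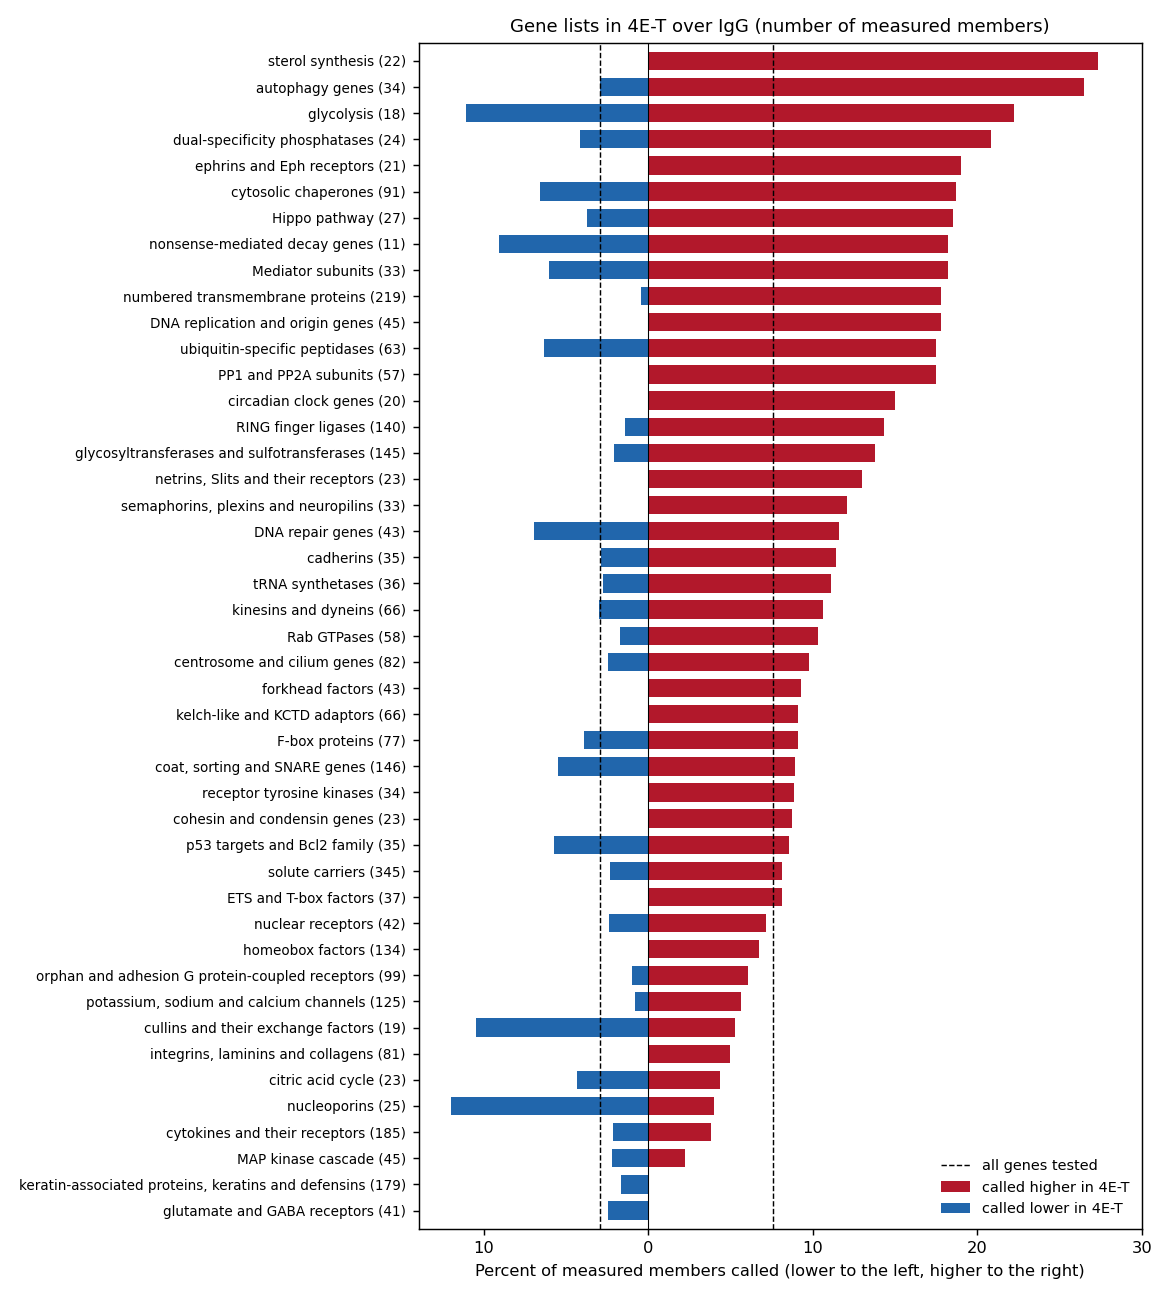
Percent of the measured members of each of 45 gene lists called higher in 4E-T (red, to the right) and lower (blue, to the left), with the number of members in brackets and dashed lines at the shares of all genes, 7.57% and 2.92%. Sterol synthesis (27.3%) and autophagy genes (26.5%) reach farthest to the right, and nucleoporins (12%) farthest to the left.

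Sterol synthesis had the largest share of higher genes. Of 22 genes, most of them enzymes of the path from acetyl-CoA to cholesterol, 6 were higher (27.3%) and 0 lower, with a median difference of 0.27 and a median input value of 7.79. Sqle, squalene epoxidase, read 10.17, 10.52 and 10.43 in 4E-T and 9.40, 9.39 and 8.74 in IgG (1.29 ± 0.19, adjusted p = 0.00168). Insig1, which holds the sterol sensor in the endoplasmic reticulum, read 8.80, 9.12 and 9.32 against 8.22, 8.45 and 8.23 (0.92 ± 0.15). Cyp51, the lanosterol demethylase, read 8.11, 8.54 and 8.52 against 7.79, 7.71 and 7.63 (0.91 ± 0.16). These 3 genes stood apart between the groups. They were named because they kept their calls without any 1 array, whereas Stard4, Sc5d and Hsd17b7 did not keep theirs. The count was 3 without 4E-T 2 and 3 without 4E-T 3, and with the group term alone only Sqle remained (1.20, adjusted p = 0.0326, against 0.148 and 0.313 for Insig1 and Cyp51).

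Of 34 autophagy genes 9 were higher (26.5%) and 1, the kinase gene Ulk2, was lower (-0.59). Atg12, a ubiquitin-like protein joined to Atg5 as the autophagosome grows, read 8.59, 9.85 and 9.68 in 4E-T and 8.22, 8.10 and 8.10 in IgG (1.57 ± 0.15, adjusted p = 0.000165). Pik3r4, the regulatory subunit of the lipid kinase that starts the process, read 5.67, 6.59 and 6.57 against 5.39, 5.20 and 4.81 (1.36 ± 0.18). Gabarapl1, of the family that coats autophagosome membranes, read 6.46, 7.57 and 7.61 against 6.05, 5.86 and 6.96 (1.30 ± 0.25). Its 4E-T 1 value lay under that on IgG 4 before centring. Higher calls numbered 4 without 4E-T 2 and 4 without 4E-T 3, and Ulk2 lost its call without any one of input 2, input 3, 4E-T 2, 4E-T 3, IgG 3 and IgG 4. With the group term alone the higher count was 1, and Atg12, Pik3r4 and Gabarapl1 were not called (adjusted p = 0.109, 0.0774 and 0.362).

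The glycolysis list had calls in both directions at shares above those of all genes. Of 18 glycolysis genes Slc16a1, Tpi1, Slc2a1 and Slc16a3 were higher (22.2%) and Ldhb and Pfkp lower (11.1%). Slc16a1, a lactate transporter, read 7.16, 7.18 and 7.13 in 4E-T and 6.22, 6.45 and 6.39 in IgG (0.86 ± 0.15, adjusted p = 0.00423; 0.0892 with the group term alone). The higher genes were thus 3 membrane transporters and 1 enzyme, and both lower genes were enzymes. The number called higher was 1 without 4E-T 2 or 4E-T 3 and 2 without IgG 4. The lower count was 0 without 4E-T 3 and 1 without input 2 or 4, 4E-T 2, or IgG 2, 3 or 4. Of 23 citric acid cycle genes Sdhd was higher (0.67 ± 0.17) and Sdhc lower (-0.62), both subunits of succinate dehydrogenase. Sdhd lost its call without 4E-T 2, 4E-T 3 or IgG 4 (adjusted p from 0.0622 to 0.0793) and Sdhc without 4E-T 2, IgG 2 or 4E-T 3, and the higher count was 2 without input 1, 4E-T 1 or IgG 2.

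Protein folding genes were called in both directions. Of 91 chaperones and cochaperones 17 were higher (18.7%) and 6 lower (6.59%), with a median input value of 7.39. The list is named for the cytosol but also holds members outside it, among them Dnajb9, Dnajb11 and Dnajc3 of the endoplasmic reticulum and Dnaja3 of mitochondria, which were higher. The called genes of the cytosol fell on both sides, with Cdc37 (0.69), Bag1 (0.65), Dnaja2 (0.63) and Pfdn1 (0.51) higher and Hsp90aa1 (-0.60) and Cct6a (-0.53) lower. Dnajb1, an Hsp40 induced by heat shock, read 6.56, 6.66 and 6.68 in 4E-T and 5.83, 5.98 and 5.85 in IgG (0.82 ± 0.14, adjusted p = 0.00335; 0.102 with the group term alone). It was the 1 gene of the list called in every fit without 1 array. The higher count was 2 without 4E-T 2 and 1 without 4E-T 3, 9 without input 1 or 4E-T 1, 10 without IgG 3 and 11 without IgG 4. The lower count was 0 without 4E-T 2 or 4E-T 3, 3 without IgG 2 or input 3 and 2 without IgG 3 or IgG 4.

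Ubiquitin ligases of the RING family were called mostly in the higher direction. Of 140 RING finger genes 20 were higher (14.3%) and Trim28 and Trim37 lower (1.43%). Rnf122 read 10.05, 8.95 and 8.82 in 4E-T and 7.31, 7.71 and 7.73 in IgG (1.51 ± 0.24), with its highest value on 4E-T 1. Rnf114 read 8.15, 9.45 and 9.65 against 8.04, 8.51 and 8.01 (1.30 ± 0.18), with 4E-T 1 under IgG 3 before centring. Trim36 read 7.09, 7.46 and 7.68 against 6.34, 6.75 and 6.23 (1.15 ± 0.19). The calls of Rnf114 and Trim36 were lost with the group term alone (adjusted p = 0.359 and 0.109). Higher calls numbered 10 without 4E-T 2 and 10 without 4E-T 3. The lower count was 0 without input 1, 4E-T 1 or 4E-T 3 and 1 without 4E-T 2, IgG 2, IgG 3 or input 3.

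Of 63 ubiquitin-specific peptidases 11 were higher (17.5%) and 4 lower (6.35%). The higher genes include Otud1 (1.0), a deubiquitinase of the OTU family rather than of the family that the list is named for. Usp30, which acts on mitochondria, read 7.44, 8.37 and 8.24 in 4E-T and 6.73, 6.76 and 6.76 in IgG (1.46 ± 0.19, adjusted p = 0.000836). Usp36, a nucleolar enzyme, read 6.70, 7.58 and 7.47 against 6.39, 6.27 and 5.94 (1.22 ± 0.19). Usp53 read 5.48, 7.25 and 7.37 against 6.14, 5.59 and 6.01 (1.31 ± 0.18), and its groups overlapped also after centring, where its call was lost (0.98, adjusted p = 0.063). Usp24 was lower, at 6.71, 7.59 and 7.53 against 8.41, 8.21 and 8.11 (-0.79 ± 0.16). Under the group term alone Usp36, Usp53 and Usp24 were not called (adjusted p = 0.0771, 0.541 and 0.0992). The number called higher was 5 without 4E-T 2 and 6 without 4E-T 3. The lower count was 1 without input 1, 4E-T 1, 4E-T 2 or 4E-T 3 and 2 without input 2, IgG 2 or input 3.

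Other parts of the ubiquitin system lay closer to the share of all genes. Of 77 F-box proteins, the substrate arms of SCF ligases, 7 were higher (9.09%) and 3 lower (3.90%). Fbxw8 led (1.56 ± 0.20), with Fbxo5, an inhibitor of the mitotic ligase APC/C (1.25 ± 0.20), and Fbxo46 (1.13 ± 0.21). The higher count was 4 without 4E-T 2 or 4E-T 3, and the lower count was 0 without 4E-T 3 and 1 without input 1, 4E-T 1 or 4E-T 2. Of 66 kelch-like and KCTD adaptors of cullin ligases 6 were higher (9.09%, 3 without 4E-T 3) and 0 lower (1 without input 4). Kbtbd6 (1.14 ± 0.18), Kctd1 (1.06 ± 0.17) and Kbtbd8 (0.75 ± 0.13), an adaptor with a role in neural crest fate, were higher. They were named because they were called in each fit without 1 array. With the group term alone Fbxw8, Fbxo46 and Kbtbd8 were not called (adjusted p = 0.0685, 0.102 and 0.541). Of 19 cullins and exchange factors Ube2f was higher and Skp1 and Ddb1 lower. Ddb1, the adaptor of CUL4 ligases, was at -0.72 ± 0.16 and lost its call without 4E-T 3 (adjusted p = 0.0803) and with centred arrays. Ube2f was not called without input 2, 4E-T 2, 4E-T 3, IgG 3 or IgG 4, and the lower count was 0 or 1 without any of 4E-T 2 and 3, IgG 2, 3 and 4 and input 3 and 4.

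Membrane and secretory genes leaned to the higher side in the lists of transmembrane proteins and of sugar-chain enzymes. Of 219 genes named only as numbered transmembrane proteins 39 were higher (17.8%) and 1, Tmem35b, lower, with a median difference of 0.21. Beside Tmem115, Tmem43, an inner nuclear membrane protein, read 7.27, 8.03 and 7.97 in 4E-T and 6.72, 6.23 and 5.88 in IgG (1.62 ± 0.22). Tmem218, a protein of the base of cilia, read 7.60, 7.99 and 8.44 against 6.91, 6.69 and 6.25 (1.55 ± 0.21). Every 4E-T array lay above every IgG array at all 3 genes. Higher calls numbered 24 without 4E-T 2 and 20 without 4E-T 3, with 19 kept in every fit, and 7 with the group term alone. Tmem35b was not called without 4E-T 2 or 4E-T 3, and the lower count was 3 without IgG 4.

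Of 145 glycosyltransferases and sulfotransferases, the enzymes that build and sulfate sugar chains, 20 were higher (13.8%) and 3 lower (2.07%). Galnt16, which starts mucin-type chains, read 6.88, 7.95 and 7.92 in 4E-T and 6.94, 6.47 and 6.02 in IgG (1.36 ± 0.23). Chst14, which sulfates dermatan, read 6.63, 6.84 and 7.07 against 5.88, 5.73 and 5.47 (1.29 ± 0.17). Fut8, the enzyme of core fucose, read 7.61, 7.62 and 7.73 against 6.90, 6.64 and 6.08 (1.14 ± 0.22). Chst14 and Fut8 stood apart on the deposited scale and Galnt16 only after centring. Under the group term alone the higher count was 2, and Galnt16 and Fut8 were not called (adjusted p = 0.145 and 0.0511). The number called higher was 8 without 4E-T 2 and 10 without 4E-T 3, and the lower count was 0 without 4E-T 2 and 1 without IgG 2 or 4E-T 3.

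Of 146 coat, sorting and SNARE genes of vesicle traffic 13 were higher (8.90%) and 8 lower (5.48%). Their median input value was 7.16, in the group of which 16.4% were higher and 3.74% lower. Ap1s1, a subunit of the clathrin adaptor AP-1, was higher (1.25 ± 0.26), as were Snx24 (0.96 ± 0.16) and Copz1, a subunit of the COPI coat (0.81 ± 0.15). Vps8, of a complex that tethers endosomes, was lower (-0.92 ± 0.17). Vps72 was also higher (0.86), but its product is a chromatin remodelling subunit. With the group term alone none of these 4 examples was called (adjusted p from 0.0924 for Vps8 to 0.317 for Copz1). The counts were 5 and 2 without 4E-T 2 and 3 and 4 without 4E-T 3. Of 58 Rab GTPases 6 were higher (10.3%) and Rab30 lower. Their median input value was 6.83, in the same group. Rab1b, which directs traffic from the endoplasmic reticulum to the Golgi, read 8.72, 9.88 and 9.87 in 4E-T and 8.06, 8.46 and 7.94 in IgG (1.64 ± 0.18, adjusted p = 0.000339; 0.074 with the group term alone). The Rab count was 2 without 4E-T 2, 1 without 4E-T 3 and 3 without IgG 4, and of the fits without 1 array only that without IgG 3 called Rab30.

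Transporters were close to the share of all genes and channels were under it. Their median input values were 4.89 and 4.65, in groups of which 9.1% and 2.67% were higher. The transporter share lay under that of its group and the channel share above that of its own. Of 345 solute carriers 28 were higher (8.12%) and 8 lower (2.32%). Slc25a32, a mitochondrial folate carrier (1.22 ± 0.18), Slc35c1, the Golgi carrier of GDP-fucose (1.18 ± 0.21), and Slc35f6 (1.14 ± 0.17) were higher. Beside Slc16a4, Slc25a27, a mitochondrial carrier of the uncoupling protein family, was lower (-1.01 ± 0.17). The counts were 10 and 3 without 4E-T 2, 9 and 2 without 4E-T 3, and the lower count was 5 without input 2 or IgG 3. Under the group term alone Slc35c1, Slc35f6 and Slc25a27 were not called (adjusted p = 0.155, 0.145 and 0.0731). Of 125 potassium, sodium and calcium channel genes 7 were higher (5.60%) and 1 lower. The lower gene was Cacng7, which encodes a partner of AMPA receptors, at 7.35, 8.25 and 7.97 in 4E-T and 9.41, 9.14 and 9.64 in IgG (-1.25 ± 0.17). The channel count was 2 without 4E-T 2 or 4E-T 3, and the lower count was 2 without IgG 4. Of 41 glutamate and GABA receptor genes 0 were higher and Gria2, an AMPA receptor subunit, was lower (-0.80 ± 0.16), a call lost without 4E-T 3 (adjusted p = 0.0803). Their median input value was 4.39, in the dim range where few genes of any kind were called.

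Guidance genes were higher where they were called. Of 21 ephrins and Eph receptors 4 were higher (19.0%) and 0 lower, with a median difference of 0.42. That share was near the 16.4% of genes with input values from 6.27 to 7.67. Efnb2, a membrane-bound ligand, read 10.19, 10.80 and 11.03 in 4E-T and 9.49, 9.80 and 9.54 in IgG (1.30 ± 0.15, adjusted p = 0.000366). Ephb4, its receptor on vessels, read 6.66, 6.96 and 7.0 against 6.22, 5.93 and 6.04 (1.00 ± 0.16). Both stood apart between the groups. The others were Efna4 (0.70) and Epha7 (0.56), and the count was 2 without 4E-T 3 and 0 with the group term alone, where Efnb2 and Ephb4 had adjusted p of 0.091 and 0.189. Of 33 semaphorins, plexins and neuropilins Sema4c (1.08 ± 0.17), Nrp2, Sema3a and Plxna2 were higher and 0 lower. That count was 1 without 4E-T 2 or 4E-T 3 and 2 without IgG 2, and 1 gene was lower without IgG 3. Of 23 netrins, Slits and their receptors Flrt3, Flrt2 (1.21) and Unc5c (0.64) were higher and 0 lower, with Flrt3 alone called without 4E-T 2 or 4E-T 3, and 1 gene lower without input 4. Sema4c was not called with the group term alone (adjusted p = 0.497).

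Adhesion genes had fewer calls. The integrins, laminins and collagens were dim, with a median input value of 4.40, in the group of which 2.67% were higher. Of 35 cadherins and catenins Cdh10, Cdh9 (0.87 ± 0.15), Cdh7 and Cdh11 were higher (11.4%) and Ctnnd1, the catenin p120 gene, lower (-0.55). The higher count was 2 without 4E-T 2, IgG 2 or 4E-T 3, and Ctnnd1 was called only without input 4 or IgG 4 among the fits without 1 array. Of 81 integrins, laminins and collagens Lama4, Itga8, Lamb1 and Itgb8 were higher (4.94%) and 0 lower. Lama4, a laminin of vessel walls, read 5.19, 6.58 and 6.84 in 4E-T and 5.25, 4.85 and 4.84 in IgG (1.62 ± 0.20), so that 4E-T 1 lay among the IgG values before centring. The count was 1 without 4E-T 2 or 4E-T 3 and 2 without IgG 4, and 1 gene was lower without IgG 2 or IgG 4. Cdh9 and Lama4 were not called with the group term alone (adjusted p = 0.167 and 0.188).

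Protein phosphatase subunits held calls in the higher direction, at a share near the 16.4% of genes with input values from 6.27 to 7.67. Of 57 subunits of the phosphatases PP1 and PP2A 10 were higher (17.5%) and 0 lower. Ppp1r11, an inhibitor of PP1, read 8.40, 8.95 and 9.16 in 4E-T and 7.19, 7.06 and 7.94 in IgG (1.66 ± 0.22, adjusted p = 0.000835). Ppp2r2a and Ppp2r5e, regulatory subunits of PP2A, were at 1.16 ± 0.15 and 0.85 ± 0.14. The count was 4 without 4E-T 2 or 4E-T 3 and 6 without input 1, 4E-T 1 or IgG 4, and 1 gene was lower without IgG 2 or IgG 4. Of 24 dual-specificity phosphatases Dusp4, Dusp10, Dusp28, Dusp7 and Dusp16 were higher (20.8%), of which Dusp4, Dusp10, Dusp7 and Dusp16 act on MAP kinases. Dusp11, whose product removes phosphates from RNA, was lower (-1.03 ± 0.18). Higher calls numbered 0 with 4E-T 3 left out, 1 with 4E-T 2, 2 with IgG 3 and 3 with any of input 1, 2 and 3, 4E-T 1 and IgG 4. With the group term alone Ppp2r5e (adjusted p = 0.344) and Dusp11 (0.0511) were not called.

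Of 45 genes of the MAP kinase cascade Map3k13 was higher (0.86 ± 0.18) and Braf lower (-0.59). Map3k13 lost its call without 4E-T 2 (adjusted p = 0.0768), and the higher count was 7 without IgG 2 and 2 without IgG 3. Braf was not called without input 1, 4E-T 1, 4E-T 2, input 3, 4E-T 3 or IgG 4. Of 27 Hippo pathway genes Ccn1, Lats1, Wwtr1, Frmd6 and Ajuba were higher (18.5%) and Tead1 lower (-0.49). The higher share was near the 16.4% of genes with input values from 6.27 to 7.67. Ccn1, a target of the pathway, read 7.38, 7.91 and 7.97 in 4E-T and 6.13, 6.50 and 6.51 in IgG (1.59 ± 0.16). Lats1, its kinase, read 9.50, 9.81 and 9.67 against 9.03, 9.0 and 8.86 (0.83 ± 0.14), and Wwtr1, the coactivator TAZ that this kinase restrains, read 7.81, 8.0 and 8.12 against 7.06, 7.35 and 7.37 (0.82 ± 0.16). Thus a kinase, the factor it inhibits and a target gene were all on the higher side. The number called higher was 3 without 4E-T 3, and Tead1 was called in no fit without 1 array. Under the group term alone Lats1 and Wwtr1 were not called (adjusted p = 0.178 and 0.163).

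Receptors were called at about the share of all genes, though both lists were dim. The median input value was 4.42 for receptor tyrosine kinases and 4.45 for the G protein-coupled receptors. Of genes with input values from 3.78 to 4.86, 2.67% were higher. Of 34 receptor tyrosine kinases Kdr, Met and Ryk were higher (8.82%) and 0 lower. Kdr, the receptor of endothelial cells for VEGF, read 5.32, 6.04 and 6.16 in 4E-T and 4.21, 4.43 and 4.82 in IgG (1.48 ± 0.22), and Met was at 0.93 ± 0.17. Of 99 orphan and adhesion G protein-coupled receptors 6 were higher (6.06%) and Adgrv1 lower (-0.93). Gprc5b (1.03 ± 0.21), Gpr107 (0.99 ± 0.18) and Adgrg1 (0.88 ± 0.16), a receptor needed for the pial border of the cortex, were higher. They were named from the members called in each fit without 1 array. The Adgrv1 call was lost without 4E-T 3, and the lower count was 2 without IgG 2 or input 4. Met, Gprc5b, Gpr107 and Adgrg1 were not called with the group term alone (adjusted p from 0.0999 to 0.449).

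Transcription factor families other than zinc fingers had higher shares from 6.72% to 9.3%, near the 7.57% of all genes. They were dim, with median input values from 4.28 to 4.86. Of genes with input values from 3.78 to 4.86, 2.67% were higher. The shares of these families all lay above that, though each list also held members with input values above 6. Of 134 homeobox genes 9 were higher (6.72%) and 0 lower, with a median input value of 4.28. Otx2, a forebrain patterning factor, read 5.59, 5.70 and 5.26 in 4E-T and 4.22, 4.05 and 4.43 in IgG (1.14 ± 0.22), a call lost without 4E-T 2 (adjusted p = 0.0618). The homeobox count was 0 without 4E-T 2, 4 without 4E-T 3 and 5 without input 1, 4E-T 1 or IgG 4, and 1 gene was lower without IgG 4. Of 43 forkhead genes Foxc1 (1.42 ± 0.15), Foxk1, Foxd1 and Foxe3 were higher, with 1 called without any of input 1, 4E-T 1, 2 and 3 and IgG 3 and 2 without input 3. Of 42 nuclear receptors Rxra, Nr2f2 (0.82 ± 0.14) and Nr1i3 were higher (1 without 4E-T 2) and Nr2c2 lower (0 without 4E-T 3). Of 37 ETS and T-box factors Ets2 (1.23 ± 0.19), Etv3 and Ets1 were higher and 0 lower, with 1 called without 4E-T 2 or 4E-T 3. Foxc1, Nr2f2 and Ets2 were not called with the group term alone (adjusted p = 0.414, 0.259 and 0.0518).

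Of 33 subunits of Mediator, the complex that links factors to RNA polymerase II, 6 were higher (18.2%) and Med14 and Med31 lower (6.06%). Med9 read 8.64, 9.37 and 9.21 in 4E-T and 7.56, 7.57 and 8.03 in IgG (1.59 ± 0.17, adjusted p = 0.000262). Med29 read 7.85, 8.04 and 7.86 against 7.07, 7.01 and 6.90 (0.99 ± 0.14). Both stood apart between the groups and kept their calls also with the group term alone. The higher count was 3 without 4E-T 2 and 2 without 4E-T 3, and the lower count was 0 without input 3, 4E-T 2 or 3 or IgG 2, 3 or 4. Of 20 circadian clock genes Nfil3 (1.31 ± 0.22), Bhlhe40 (1.04 ± 0.20), both repressors, and the activator Arntl (0.88) were higher and 0 lower. Nfil3 was not called with the group term alone (adjusted p = 0.242).

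Genome maintenance genes showed called members on both sides. Of 43 DNA repair genes Lig4, Rad50, Brca2, Rad51d and Ercc5 were higher (11.6%) and Atr, Prkdc and Atm lower (6.98%). Lig4, the ligase of end joining, read 7.37, 8.29 and 8.16 in 4E-T and 6.94, 6.20 and 6.55 in IgG (1.54 ± 0.22). Rad50 read 7.56, 7.80 and 7.60 against 6.70, 6.09 and 5.75 (1.42 ± 0.24), and Brca2 read 8.27, 8.44 and 8.41 against 7.27, 7.41 and 6.70 (1.24 ± 0.22). All 3 lower genes encode kinases of the same family, at -1.32 for Atr, -0.86 for Prkdc and -0.73 for Atm. Only Atr among them was called in every fit without 1 array, and Smg1, a kinase of that family listed with decay genes, was lower as well. Higher calls numbered 3 without 4E-T 2 or 4E-T 3, and the lower count was 1 without input 1, 4E-T 1, IgG 2 or 4E-T 3 and 2 without 4E-T 2 or IgG 3.

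Of 45 DNA replication and origin genes 8 were higher (17.8%) and 0 lower, with a median difference of 0.34 and a median input value of 7.58. They were Cdc6 (1.39), Gins2, Pold2, Gins3, Gins4, Mcm7, Orc1 and Orc2. Gins2, of the complex that travels with the replicative helicase, read 8.63, 8.86 and 8.73 in 4E-T and 7.81, 8.12 and 7.45 in IgG (1.02 ± 0.20), a call lost without 4E-T 2 (adjusted p = 0.058). The count rested on single arrays, since leaving out 4E-T 2 gave 0 and 4E-T 3 gave 1. It was 2 with IgG 4 left out, 3 with IgG 3, 4 with any of input 1, 4E-T 1 and input 2, and 5 with input 3. Of 23 cohesin and condensin genes Smc3 and Ncaph2 (0.83 ± 0.19) were higher, with 0 called without 4E-T 2 or 4E-T 3. Of 25 nucleoporins Nup153 was higher and Nup205, Seh1l and Nup210l lower (12%). Nup210l, at -1.01 ± 0.23, lost its call without 4E-T 2 or 4E-T 3 (adjusted p from 0.084 to 0.0847), where the lower count was 0 and 1, and Nup153 was called only without input 1, 4E-T 1 or input 4.

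RNA and cytoskeleton genes completed the lists within the cell. Of 11 nonsense-mediated decay genes Smg5 and Pnrc2 were higher and Smg1 lower. Smg1, the kinase that marks faulty mRNAs for decay, read 7.30, 7.74 and 7.75 in 4E-T and 9.07, 8.78 and 8.72 in IgG (-1.17 ± 0.15, adjusted p = 0.000835). The number called higher was 0 without 4E-T 2 or 4E-T 3 and 1 without IgG 3 or IgG 4, and the lower count was 2 without input 1 or 4E-T 1. Of 36 tRNA synthetases Wars (1.25 ± 0.14), Eprs, Sars and Farsb were higher (11.1%) and Nars2 lower. Their median input value was 7.14, in the group of which 16.4% were higher. The higher count was 1 without 4E-T 2 or 4E-T 3 and 2 without IgG 3, and Nars2 lost its call without any one of input 1, input 3, 4E-T 1, 4E-T 2, IgG 2 and IgG 4.

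The median input value was 6.87 for kinesins and dyneins and 6.56 for centrosome and cilium genes, in the group of which 16.4% were higher. Of 66 kinesin and dynein genes 7 were higher (10.6%) and Dync1h1 and Dync2h1 lower. The lower genes are the heavy chains of the cytoplasmic and the ciliary dynein, and Dync2h1 was at -0.95 ± 0.18. Dctn4, a subunit of the dynein activator dynactin, was higher (0.85 ± 0.15), as were Dctn2 (0.64) and Dctn5 (0.47). Higher calls numbered 1 without 4E-T 2 or 4E-T 3 and 4 without input 2 or 3 or IgG 3 or 4. Of 82 centrosome and cilium genes 8 were higher (9.76%) and Cdk5rap2 and Tctn3 lower. Ift22, of the transport trains in cilia, read 7.26, 7.99 and 7.81 in 4E-T and 6.62, 6.71 and 6.54 in IgG (1.28 ± 0.14). It lay below input in both precipitates, at -0.84 ± 0.12 in 4E-T and -2.12 ± 0.12 in IgG. Cdk5rap2, a centrosome protein whose loss causes a small brain, read 6.63, 7.22 and 7.07 against 8.06, 7.96 and 8.01 (-0.88 ± 0.13). The number called higher was 1 or 2 without 4E-T 2 or 4E-T 3 in turn, 5 with IgG 3 left out and 14 with IgG 2 left out, and the lower count was 1 without input 1, 4E-T 1 or 4E-T 3. Dctn4, Dync2h1 and Ift22 were not called with the group term alone (adjusted p = 0.214, 0.0589 and 0.0755).

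Cell death genes were called on both sides. Of 35 p53 targets and Bcl2 family genes Plk2 (1.46), Bid (0.87 ± 0.16) and Bak1 (0.79 ± 0.15) were higher (8.57%) and Bcl2l11 and Trp53inp1 lower (5.71%). The higher count was 6 without IgG 2, and the lower count was 1 without input 1 or 4, 4E-T 1 or IgG 4 and 0 without any other array. Of 185 cytokines and their receptors, with a median input value of 3.90, 7 were higher (3.78%) and 4 lower (2.16%). Cxcl12, a chemokine that guides interneurons, read 6.29, 7.70 and 8.53 in 4E-T and 6.58, 7.0 and 6.88 in IgG (1.31 ± 0.22). Its groups overlapped also after centring, and its call was lost there (0.88, adjusted p = 0.177). Il17ra was at 0.97 ± 0.17, and Ccl27a led the lower side. The counts were 3 and 2 without 4E-T 2, 4 and 1 without 4E-T 3, and the lower count was 2 without input 1 or 2, 4E-T 1 or IgG 4. Bid, Bak1, Cxcl12 and Il17ra were not called with the group term alone (adjusted p = 0.54, 0.307, 0.628 and 0.302).

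Genes with no known role in the cortex gave the lowest share of higher calls beside the transmitter receptors. Of 179 genes listed as keratin-associated proteins, keratins and defensins 0 were higher and Krtap31-1, Krtap19-4 and Lce6a lower (1.68%). Lce6a is a late cornified envelope gene, outside the families that the list is named for. The median input value was 3.46. In the dimmest group, with input values up to 3.78, 0.644% of genes were higher and 0.766% lower. A higher count of 0 at that level does not set the list apart. Krtap19-4, of a family of near-identical genes that makes its value uncertain, was at -0.66 ± 0.16 and lost its call without 4E-T 2 or 4E-T 3 (adjusted p from 0.0779 to 0.137). The lower count was 0 without 4E-T 2 and 1 without input 1, 4E-T 1 or 4E-T 3.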

How the data were processed

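RNA was precipitated with the Magna RIP kit, amplified with a NuGEN Pico kit and labelled with biotin, per the labels' protocols. The deposited values are log2 intensities. The submitters' processing notes name RMA and Affymetrix Expression Console, for which no version was found. The genome build is likewise not given in the sources used here. Of 41345 probe sets, 23521 had 1 gene symbol, 1814 had several and 16010 had none here. For each of 22180 genes the single-symbol probe set with the highest mean was kept. With no detection calls in the table, dim genes stayed in. The number of arrays limits the precision.

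All 10 arrays entered a limma 3.58.1 fit (R 4.3.3, lmFit and eBayes) with terms for group and for number 1, and p-values were adjusted by Benjamini-Hochberg. The script was tested on simulated data. Errors of differences are standard errors of that fit. Without 4E-T 1 or input 1 the fit is the same, since the term for number 1 then takes up the array that is left. Replicate numbers 2 and 3 are the only ones common to both precipitates, and deviations of the like-numbered arrays from their group means correlated across genes at -0.0672 and 0.0224, so the numbers were not taken to pair them. The alternatives are listed in the closing section.

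The genes and lists were chosen with earlier results of these data known. The naming rule took protein-coding genes called in the fit and in each of 10 fits without 1 array, with values that did not overlap once each array was centred on its median over the 22180 genes: the 15 highest and 15 lowest differences. Zinc finger genes, chemoreceptors, predicted genes and clone names were left out. For each of 46 lists the rule took, among members called in all those fits, the 3 highest and 2 lowest, or else the member of lowest p. It named 113 genes in all. The result of 1 of these lists is not reported here. Zinc finger genes (508) were found by symbol and by RefSeq synonym, as the tables hold no descriptions. No set test was made. Plots were made in Python 3.11.15 with matplotlib 3.10.9.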

Additional observations from a re-analysis of the deposited data

Results flagged for a closer look

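The median over all probe sets of input 1 was 3.54 and stood apart from the medians of the other 3 inputs, by a gap that made up most of the range of the 4 arrays. Chance flags about 1 in 20 groups in this way. Input 1 enters the comparison of 4E-T with IgG through the term for number 1, and without it 1395 genes were higher and 516 lower. Only the input group holds enough arrays for this check.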

How the results depend on the processing

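Over all alternatives run, 0 genes were called in opposite directions to the fit reported. The counts of 1678 higher and 648 lower genes became 157 and 142 with the group term alone and 1095 and 415 with arrays centred on their gene medians and the group term alone. In the fits without 1 array they ran from 663 to 1676 higher and from 251 to 644 lower. With the replicate block, which the numbers of 4E-T and IgG do not support as pairs, they were 1731 and 723. The 8 arrays not numbered 1 gave 1395 and 516, the 11090 genes above the median mean level 2164 and 732, the mean of probe sets 1668 and 673, and an intensity trend in the prior 1896 and 784. The higher share of the calls was 68.6% to 74.7% in all of these but the group term alone (52.5%). Of the 113 named genes, 61 lost their call with the group term alone, 4 with centred arrays (Ddb1, Usp53, Cxcl12 and Krtap19-4), 2 with the mean of probe sets (Ell2 and Map3k13) and 0 with the block, the 8 arrays or the trend. The fit of the 8 arrays is the same as that without 4E-T 1. For genes named because they were called in every fit without 1 array, its result was therefore fixed by that choice. Of the 92 list counts, 59 were smaller by more than 1.5 times without 4E-T 2 and 64 without 4E-T 3. The cause was not tested. With no detection calls, signal over background could not be judged.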
